A study of Macaca fascicularis with 15 samples.

Results

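ABCA4, EYS, IMPG1, TULP1, CDHR1 and RP1 are photoreceptor genes in which mutations are known to cause inherited retinal dystrophy in people. They were described in RNA sequencing of the eye of the cynomolgus monkey, Macaca fascicularis, across whole eye, whole retina, central retina and peripheral retina. The members were chosen by name: each name heads exactly 1 entry in every table, so that 6 of the 12995 genes with a value are described. All animals were wild type, the tissue had been kept in RNALater, a solution that preserves RNA, and 1 eye went into each sample. Tables of 11 of the 15 samples were analysed, from 2 whole eyes, 2 whole retinas, 4 central retinas and 3 peripheral retinas, and 4 more records, of which 2 are whole eye and 2 whole retina, were not analysed here. Central retina holds the macula, and the headers of its tables use that word. Eyes and retinas are described as biological replicates. For the regional samples the labels do not say whether the animals differed, or whether central and peripheral samples share an animal. Their spread may be partly or wholly technical, and every p-value rests on a spread pooled over all tissues.

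Rods and cones capture light in an outer segment, a modified cilium packed with membrane discs that is renewed throughout life and shed to the pigment epithelium. ABCA4 is a flippase of the disc rim that clears retinoid by-products of bleached visual pigment, and is the gene of Stargardt macular dystrophy. CDHR1 is a cadherin at the base of the outer segment where new discs form, RP1 is a microtubule-associated protein of the axoneme, and TULP1 is a tubby-family protein needed to carry proteins into the outer segment. IMPG1 is a proteoglycan of the interphotoreceptor matrix that surrounds the outer segments, and EYS is a large secreted protein of the photoreceptor ciliary region that rodents lack.

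The deposited values are normalized by the authors in a unit that is not stated, and levels were compared between tissues only, not between genes. The files do not give absolute depth. Relative depth was recovered from 237 entries deposited at full precision, and ran from 31.5% in central retina replicate 1 to 100% in whole eye replicate 2. Rod and cone markers were above 0 in every tissue, and the summed level of 7 lens and corneal markers was 3072 to 3198 in whole eye, 365 to 468 in whole retina and 42.2 to 59.2 in the regional libraries. Most of the regional sum was PAX6 alone: 49.7 of a mean sum of 54.4 in central retina, 37.3 of 47.7 in peripheral retina. The mean level of PAX6 was also 58.7 in whole eye and 43.6 in whole retina. The regional sums therefore mainly show PAX6 and not the other lens and corneal markers. The 7 pigment epithelium markers summed to 2453 to 2643 in whole retina, near the 2585 to 2891 of whole eye, but to 263 to 383 in central retina and 710 to 1061 in peripheral retina. RPE65, the visual cycle isomerase of that epithelium (its name shares its start with another gene's), averaged 246 ± 31.2 (SD, n = 2) in whole retina against 5.64 ± 0.915 (SD, n = 4) in central retina and 6.89 ± 0.658 (SD, n = 3) in peripheral retina. RLBP1, also counted among the Müller glia markers, was a large part of the regional sums. It averaged 200 of a mean sum of 315 in central retina and 444 of 890 in peripheral retina, against 545 of 2548 in whole retina. Pigment epithelium markers were thus near the whole eye level in the libraries labelled whole retina and well below it in the regional libraries.

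Peripheral retina had the highest mean of the 4 tissues for each of the 6 genes. The share of all genes with their highest mean in peripheral retina was not computed. By limma, a linear model for expression values, 4 of the 6 (RP1, ABCA4, IMPG1 and EYS) were lower in central than in peripheral retina. This count stands beside 8.76% of all tested genes lower and 12.5% higher. TULP1 and CDHR1 had smaller differences between the regions that did not pass the test, and instead stood well above whole retina in both regions. Central and peripheral retina are both parts of the retina, so a level above whole retina in both is not a difference between regions. In comparisons with whole retina, region cannot be told apart from any other difference between the regional and whole retina libraries. No member differed between whole retina and whole eye by limma, where 2.27% of all tested genes passed. Differences are on the scale of log2(value + 1), p-values are two-sided and adjusted by Benjamini and Hochberg over the 11933 tested genes of a comparison, and the threshold is 0.05. The 6 comparisons share groups and are not independent of each other.

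**Figure D1:**
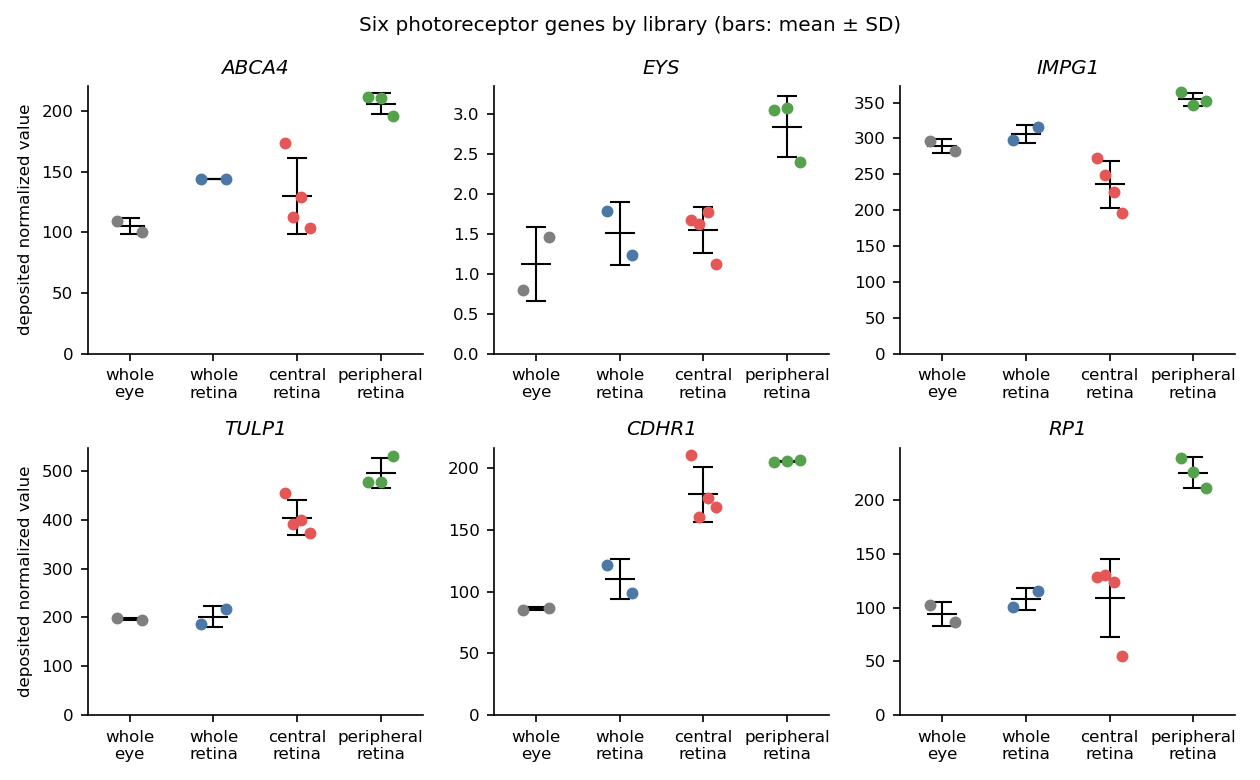
Deposited normalized value (y axis, unit not stated, linear and starting at 0) of the 6 genes in each library, by tissue. Points are libraries, and bars give the mean ± SD of each tissue (n = 2, 2, 4 and 3). The 3 peripheral libraries lie above all other libraries for ABCA4, EYS, IMPG1, TULP1 and RP1, whereas for CDHR1 a central library at 210.6 lies above them.

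Among the genes of the disc and its axoneme, RP1 had the largest regional difference of the 6. Its values were 239.3, 226.6 and 211.0 in the 3 peripheral libraries and 128.2, 130.5, 123.5 and 54.9 in the 4 central libraries. All central libraries lay below all peripheral ones, and central retina replicate 4 lay far below the other 3. Whole eye gave 102.1 and 86.4 and whole retina 100.8 and 115.0, so the whole tissues overlapped with each other. Central retina replicate 4 lay below all of these, and the other 3 central libraries lay above them. The peripheral mean of 226 ± 14.2 (SD, n = 3) was 2.07 times the central mean of 109 ± 36.4 (SD, n = 4), a log2 difference of -1.12 for central minus peripheral (SE 0.26, limma adjusted p = 0.0119). Without central retina replicate 4 the difference was -0.82 (limma adjusted p = 0.00115). RP1 is also the start of another name in the tables, RP1L1. In central retina replicate 4 the values of RP1 and RP1L1 were 54.9 and 56.6, while RP1 was the higher of the pair in the other 10 libraries, and whether rows of these names were exchanged in any library was not tested.

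ABCA4, the flippase of the disc rim, was also lower in central retina. The peripheral libraries read 211.2, 210.8 and 195.7 and the central libraries 173.6, 112.7, 129.1 and 103.3, with no overlap. Whole retina gave 143.9 in both libraries, inside the central range, and whole eye gave 109.6 and 100.5, at and just below its lower end. The peripheral mean of 206 ± 8.82 (SD, n = 3) was 1.59 times the central mean of 130 ± 31.1 (SD, n = 4), at a log2 difference of -0.69 (SE 0.156, limma adjusted p = 0.0104). The central libraries spread widely, and the highest of them, replicate 1, is the library of lowest relative depth. Without it the difference was -0.84 (limma adjusted p = 0.000931). The call was lost in 1 alternative, with the replicate number as a block (limma adjusted p = 0.0592).

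IMPG1, the matrix proteoglycan, was the only member whose central mean was the lowest of the 4 tissues. Central libraries read 272.8, 249.3, 225.3 and 196.2, below every library of the other tissues. Whole eye read 296.4 and 282.2, whole retina 297.6 and 315.4, and peripheral retina 364.7, 346.1 and 352.8, in 3 sets that did not overlap. The peripheral mean of 355 ± 9.43 (SD, n = 3) was 1.5 times the central mean of 236 ± 32.8 (SD, n = 4), at a log2 difference of -0.60 (SE 0.122, limma adjusted p = 0.00605). This call was kept in every alternative run, at adjusted p of up to 0.0473.

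EYS, the secreted ciliary protein, had low deposited values that could be turned back into reads. Peripheral libraries read 3.04, 3.07 and 2.40 and central libraries 1.67, 1.62, 1.77 and 1.12, with no overlap. Whole eye read 0.793 and 1.45 and whole retina 1.79 and 1.23, overlapping with each other and with central retina. The peripheral mean of 2.84 ± 0.379 (SD, n = 3) was 1.84 times the central mean of 1.55 ± 0.288 (SD, n = 4), at a log2 difference of -0.60 (SE 0.155, limma adjusted p = 0.0201). The added 1 in the log2 scale understates the change of a gene this low, and with 0.1 in its place the difference was -0.85 (limma adjusted p = 0.0307). The call is fragile: the adjusted p was 0.0568 without central retina replicate 4, and 0.0725 and 0.0852 without replicates 1 and 2 of peripheral retina.

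The low value of EYS did not mean few reads. The smallest whole numbers of reads that give the deposited EYS values were 1288, 1082 and 1299 in the peripheral libraries and 318, 757, 791 and 460 in the central libraries. Whole eye had 463 and 879 reads and whole retina 1030 and 617. Each recovered number lay within 3.3e-07 of a whole number. A read counted for only 0.00171 of the deposited unit for EYS in whole eye replicate 1, against a median of 0.00781 over the 218 entries whose reads could be recovered, and 3 of these had a lower value per read than EYS. The exact 95% Poisson interval of the lowest peripheral value ran from 2.27 to 2.54, above the upper bound of 1.90 of the highest central one. Such intervals cover counting error only, and the other members, deposited to 2 decimals, gave no read numbers.

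**Figure D2:**
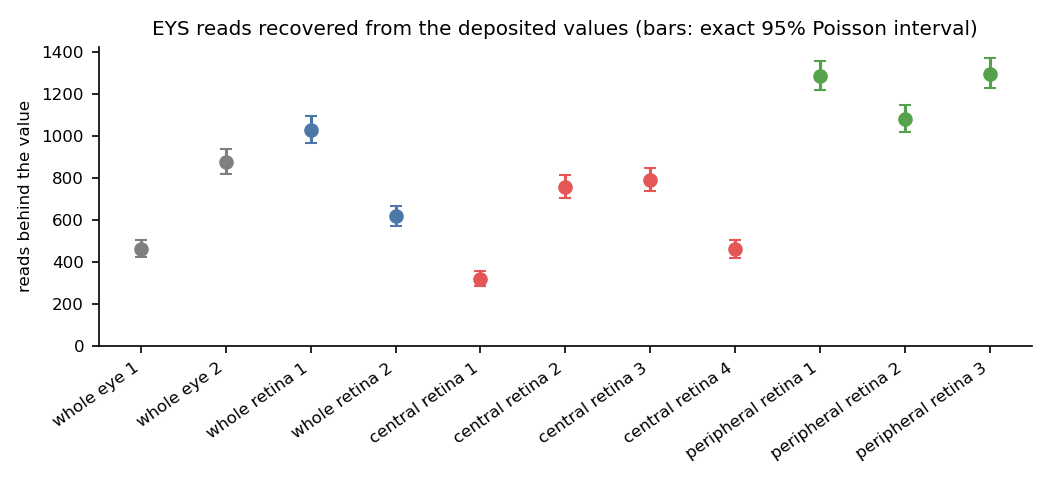
Reads behind the EYS value (y axis, reads) in each of the 11 libraries (x axis), with exact 95% Poisson intervals as bars. The 3 peripheral libraries hold 1082 to 1299 reads; the 4 central ones hold 318 to 791, at different depths, so read numbers are not levels.

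TULP1, the transport protein, lay higher in both regions than in the whole tissues. Peripheral libraries read 477.7, 478.7 and 531.0 and central libraries 455.2, 390.8, 399.3 and 373.2, and these sets did not overlap, although the gap between 477.7 and 455.2 was small. Whole eye read 198.9 and 195.6 and whole retina 186.5 and 216.9. The means were 496 ± 30.5 (SD, n = 3) in peripheral and 405 ± 35.4 (SD, n = 4) in central retina, and the difference of -0.29 (SE 0.112, 95% interval -0.54 to -0.05) had a limma adjusted p of 0.0847.

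CDHR1, the cadherin of the outer segment base, gave the closest set of peripheral values, 205.5, 205.8 and 206.4. Central libraries read 210.6, 160.5, 176.0 and 168.4, so 1 central library lay above the peripheral ones and 3 below. Whole eye read 85.4 and 87.1 and whole retina 122.0 and 98.7. The difference of -0.21 between central and peripheral retina (SE 0.118, 95% interval -0.47 to 0.05) did not pass the test (limma adjusted p = 0.229), and the interval still holds differences of the size seen for TULP1.

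Over the 6 genes, central against peripheral retina gave 4 lower, 0 higher and a median of -0.60. By an unadjusted p under 0.05, 5 were lower and 0 higher, beside 16.8% of all tested genes lower and 18.9% higher by that rule. By the adjusted p, 8.76% of all tested genes were lower and 12.5% higher in central retina, with a median of -0.01. The libraries of the 2 regions did not overlap for 5 of the 6, with central lower in each, against 15.6% of all tested genes with central lower and no overlap. An exact two-sided permutation test over the 7 regional samples gave p = 0.0571 for these 5, the smallest p that 4 samples against 3 allow, and p = 0.229 for CDHR1. Any gene without overlap gets this smallest p, so it repeats the overlap result and could not have passed 0.05. In bulk tissue, fewer cells of a type and less RNA per cell cannot be told apart.

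**Figure D3:**
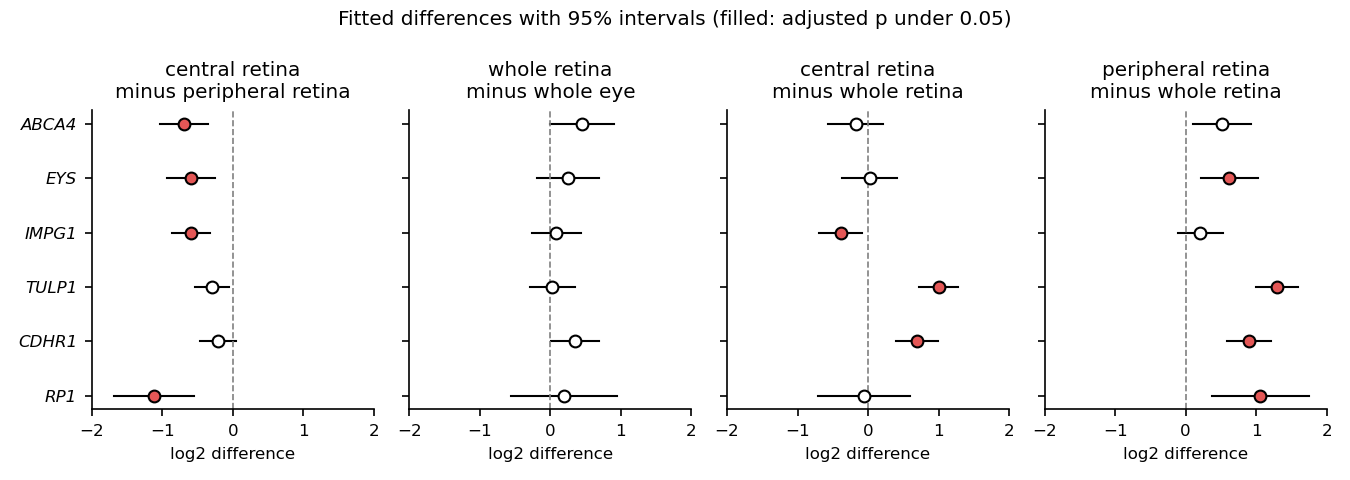
Fitted log2 difference (x axis) of the 6 genes (y axis) in 4 comparisons, 1 per panel, with 95% intervals. Filled points passed limma's adjusted threshold of 0.05, and the dashed line marks no difference. RP1 lies farthest left in the regional panel at -1.12, and TULP1 farthest right in the panels against whole retina at 1.00 and 1.30.

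Against whole retina, the members split. In peripheral retina TULP1 was higher by 1.30 (SE 0.134, limma adjusted p = 2.52e-05), RP1 by 1.06 (SE 0.311, 0.0218), CDHR1 by 0.90 (SE 0.141, 0.000535) and EYS by 0.62 (SE 0.185, 0.0237). ABCA4, at 0.51 (limma adjusted p = 0.0546), and IMPG1, at 0.21 (0.299), did not pass. These 4 of 6 higher and 0 lower stand beside 9.83% of all tested genes higher and 24.3% lower, and the median was 0.76 for the members and -0.08 for all genes. The peripheral libraries lay above both whole retina libraries for all 6, as for 21.7% of all tested genes. The RP1 call was lost without any 1 of whole retina replicates 1 and 2 and peripheral retina replicates 1 and 2, at adjusted p of up to 0.108. The EYS call was lost without whole retina replicate 2 (0.152) or without either of replicates 1 and 2 of peripheral retina (0.0675 and 0.0711).

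In central retina, TULP1 was 2.01 times whole retina, a log2 difference of 1.00 (SE 0.127, limma adjusted p = 6.78e-05), and CDHR1 was 1.62 times, at 0.69 (SE 0.134, 0.00139). IMPG1 was lower, at -0.39 (SE 0.138, limma adjusted p = 0.0376), a call that leaving out any 1 of 7 of the 11 libraries ended, at adjusted p of up to 0.178. EYS at 0.02 (95% interval -0.36 to 0.41), RP1 at -0.06 (-0.71 to 0.59) and ABCA4 at -0.18 (-0.57 to 0.21) did not pass, and RP1 turned to 0.24 without central retina replicate 4. Over all tested genes 18.9% were higher and 29.7% lower, so 2 of 6 higher and 1 of 6 lower are not far from the background. The median was -0.02 for the members and -0.10 for all genes.

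The comparisons with whole eye use the same regional libraries. Central retina was higher for TULP1 by 1.03 (limma adjusted p = 4.78e-05) and for CDHR1 by 1.04 (6.79e-05), 2 of 6 against 21% of all tested genes higher and 34.2% lower. Peripheral retina was higher for 5 of 6, against 12.3% higher and 27.6% lower: TULP1 by 1.32 (limma adjusted p = 1.78e-05), CDHR1 by 1.25 (4.24e-05), RP1 by 1.25 (0.00806), ABCA4 by 0.96 (0.00191) and EYS by 0.87 (0.0034). The RP1 call was lost without whole eye replicate 2, at 0.0640. IMPG1 passed in neither, at -0.30 (limma adjusted p = 0.083) in central and 0.29 (0.133) in peripheral retina.

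The regional libraries differ from the whole tissues in more than these genes, and scaling bears on each value above. Quantile normalization moved the median difference of all genes from -0.10 to 0.12 for central and from -0.08 to 0.16 for peripheral against whole retina. With it, the share of calls that were higher went from 38.9% to 59.5% and from 28.8% to 60.9%, and against whole eye from 38.1% to 59.1% and from 30.9% to 61.6%. Setting medians equal gave 44.7% for peripheral retina against whole retina and 43.9% against whole eye. IMPG1 in central against whole eye turned from -0.30 to 0.03 under quantile normalization, and RP1 in central against whole retina turned from -0.06 to 0.09. TULP1 and CDHR1 stayed higher than whole retina and whole eye in both regions under every alternative run. The Müller glia sums (8 markers) were 4552 to 4567 in whole retina, 1635 to 2044 in central retina and 2967 to 3544 in peripheral retina. These sums and the pigment epithelium sums given above, both of which count RLBP1, moved with these comparisons. Their part in the result was not tested.

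Whole retina and whole eye did not differ for any of the 6 by limma, where 2.27% of all tested genes passed (0.168% higher and 2.1% lower in whole retina). At an unadjusted p under 0.05, 2 of 6 were higher in whole retina, beside 4.99% of all tested genes: ABCA4 by 0.45 (95% interval 0.000713 to 0.90, adjusted p = 0.47) and CDHR1 by 0.34 (0.00357 to 0.68, 0.462). The difference was 0.25 for EYS, 0.19 for RP1, 0.08 for IMPG1 and 0.03 for TULP1, with adjusted p of 0.708 to 0.964. The whole retina libraries lay above both whole eye libraries for ABCA4, CDHR1 and IMPG1, 3 of 6, against 14% of all tested genes. With 2 libraries on each side the intervals are wide: for RP1 it ran from -0.55 to 0.94.

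From the lowest group mean to the highest, EYS, TULP1, CDHR1 and RP1 ran from whole eye through whole and central to peripheral retina. ABCA4 ran from whole eye through central and whole to peripheral retina, and IMPG1 from central retina through whole eye and whole retina to peripheral retina. Neighbours in that order rarely differed. The last step passed the test for EYS and RP1 (central to peripheral retina), and the middle step for TULP1 and CDHR1 (whole to central retina). No step between neighbours passed for ABCA4 or IMPG1, although for IMPG1 no neighbouring tissues overlapped.

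Rod genes also differ between the regions, so each member was set against 12 rod markers in the same library, as its log2 value minus their mean log2 value. The rod markers summed to 11652 to 20280 in central and 18865 to 27484 in peripheral libraries. In central retina 6 of 12 were lower and 0 higher (median -0.49), beside 8.76% and 12.5% of all tested genes. Among the rod markers CNGA1, a subunit of the rod channel, was lower, at -0.94 (limma adjusted p = 0.00187), whereas GNAT1, rod transducin, at -0.49 (0.153) did not pass. Relative to the rod markers, the central minus peripheral difference was -0.02 for EYS, -0.02 for IMPG1 and -0.11 for ABCA4, and the libraries of the regions overlapped for all 3. The EYS value rests on the added 1: with 0.1 in its place, an alternative added after seeing the data, it was -0.26, while IMPG1 stayed at -0.02 and ABCA4 at -0.11. RP1 stood at -0.54 with overlap, its central libraries running from -2.90 in replicate 4 to -1.47 in replicate 2. TULP1 and CDHR1 turned the other way, to 0.29 and 0.37 higher in central retina, and neither overlapped, but 54.1% of all tested genes were likewise higher with no overlap relative to these markers. These values are a description with no test.

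The 14 cone markers served as a second reference. They summed to 3327 to 4093 in central and 3176 to 3483 in peripheral libraries. In central retina 4 of 14 were higher and 0 lower (median 0.24), beside 12.5% and 8.76% of all tested genes. OPN1LW, the long-wavelength opsin, was higher by 0.59 (limma adjusted p = 0.0116), and ARR3, cone arrestin, at 0.19 (0.4, shared name start), did not pass. Relative to the cone markers, all 6 members were lower in central retina with no overlap, as were 44.3% of all tested genes set against the same markers. The differences were -0.53 for CDHR1, -0.61 for TULP1, -0.91 for IMPG1, -1.01 for ABCA4 and -1.44 for RP1. EYS stood at -0.91, but at -1.17 with 0.1 in place of 1, so its place among them depends on the added value. Against whole retina, relative to rods, TULP1 was 0.85 higher in central and 0.56 higher in peripheral retina and IMPG1 was lower, at -0.54 and -0.53.

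**Figure D4:**
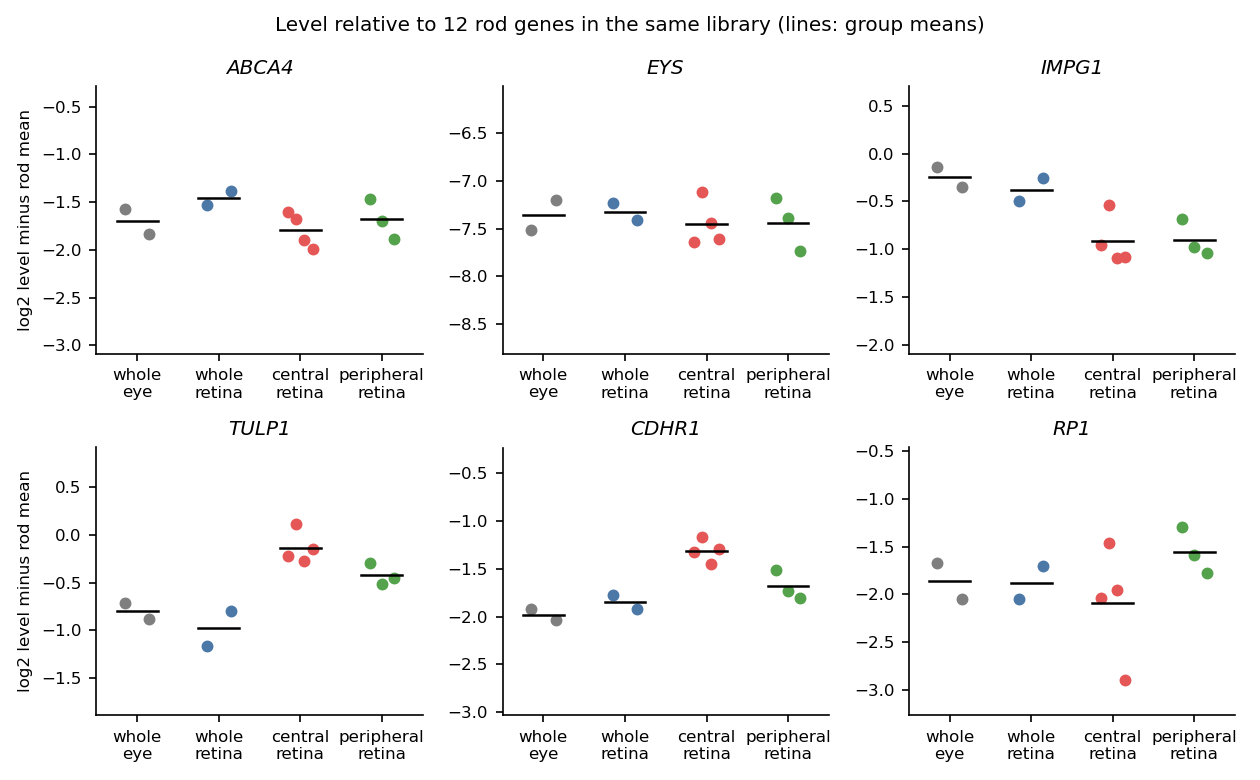
Log2 level of each gene minus the mean log2 level of 12 rod markers in the same library (y axis, log2 units), by tissue, with points as libraries and lines as group means. Central and peripheral libraries overlap for ABCA4, EYS, IMPG1 and RP1, and central libraries lie above peripheral ones for TULP1 and CDHR1.

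The nearest relatives of the members in their gene families were read in the same way. IMPG2, the second proteoglycan of the matrix, had a mean of 106 ± 15.7 (SD, n = 4) in central retina and 144 ± 23.0 (SD, n = 3) in peripheral retina, a difference of -0.44 that did not pass (limma adjusted p = 0.0794), with no overlap. RP1L1, the paralog of RP1 that is also an axonemal protein (shared name start), had a mean of 62.4 ± 13.3 (SD, n = 4) in central retina and 66.8 ± 7.50 (SD, n = 3) in peripheral retina, against 20.5 ± 1.21 (SD, n = 2) in whole retina. It differed from whole retina by 1.54 in central retina and 1.65 in peripheral retina (limma adjusted p = 3.41e-05 and 5.37e-05) and by only -0.11 between the regions (0.642). RP1 differed from whole retina by -0.06 in central tissue, but by 0.24 without central retina replicate 4. TUB, the founding tubby gene (shared name start), was higher than whole retina by 0.81 in central retina and 0.89 in peripheral retina (limma adjusted p = 0.00127 and 0.00154), and TULP3, the tubby protein of primary cilia, was lower, at -0.39 in central retina (0.032). Between the regions neither TUB (-0.08) nor TULP3 (-0.07) passed. Of 7 tested ABCA transporters, ABCA2 (1.19, limma adjusted p = 0.000605) and ABCA3 (0.68, 0.00726) lay higher in central retina than in the periphery. None was lower, beside 12.5% of all tested genes higher and 8.76% lower, and ABCA7, at 0.04 (0.887), had no called difference. Of 5 tested doublecortin-domain genes, DCLK3, a kinase, was lower in central retina, at -0.56 (limma adjusted p = 0.00948). Its central mean of 0.54 was below the minimum of 1 for a test. It was tested only because of the other tissues, at 1.28 in peripheral retina, 1.16 in whole retina and 1.085 in whole eye. This call therefore rests on values near the floor. Of the other cadherin-related genes, CDHR2 had values of 0.03 to 0.27 and was too low to test.

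Of 11 other outer segment and matrix genes, 2 were lower and 0 higher in central than in peripheral retina (median -0.38), beside 8.76% of all tested genes lower and 12.5% higher. PROM1, prominin, a protein of nascent discs, had a mean of 105 ± 15.4 (SD, n = 4) in central retina and 174 ± 10.3 (SD, n = 3) in peripheral retina (-0.73, limma adjusted p = 0.016), and RDH12, a photoreceptor retinol dehydrogenase, was lower, at -0.48 (0.0357). PRPH2, the structural protein of the disc rim (shared name start), at -0.28 (limma adjusted p = 0.31) and ATP8A2, a disc lipid flippase, at 0.31 (0.111) did not pass. Against whole retina, 8 of the 11 were higher and 0 lower in peripheral retina (median 0.72), beside 9.83% and 24.3% of all tested genes. In central retina 4 were higher and 0 lower (median 0.44), beside 18.9% and 29.7%.

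Of 16 genes of the photoreceptor cilium and of Usher syndrome, 7 were lower and 0 higher in central than in peripheral retina, with a median of -0.55, beside the same 8.76% and 12.5% of all tested genes. CDH23, a cadherin of Usher syndrome, averaged 3.18 ± 0.823 (SD, n = 4) against 8.76 ± 1.75 (SD, n = 3), at -1.23 (limma adjusted p = 0.000632). CLRN1, clarin-1, was lower, at -1.15 (limma adjusted p = 0.0016). FAM161A, a ciliary microtubule protein, was lower, at -0.87 (limma adjusted p = 0.00159). Further calls were LCA5 (-0.63, limma adjusted p = 0.0496), ARL6 (-0.66, 0.0465, shared name start) and PCDH15 (-0.55, 0.0385, shared name start), and LCA5, ARL6 and PCDH15 were named after their values were seen. Against whole retina, 7 of the 16 were higher and 0 lower in peripheral retina (median 0.49), beside the 9.83% and 24.3% of all tested genes. In central retina 1 was higher (DFNB31, named after its values were seen) and 2 were lower (median -0.04), beside 18.9% and 29.7%. FAM161A was at 0.02 in central (limma adjusted p = 0.927) and 0.89 in peripheral retina (0.00206), and PROM1, of the outer segment list, at -0.07 (0.805) and 0.66 (0.035). The 2 lower genes were CDH23 and CLRN1, at -0.99 and -1.50 (limma adjusted p = 0.00165 and 0.000168).

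**Figure D5:**
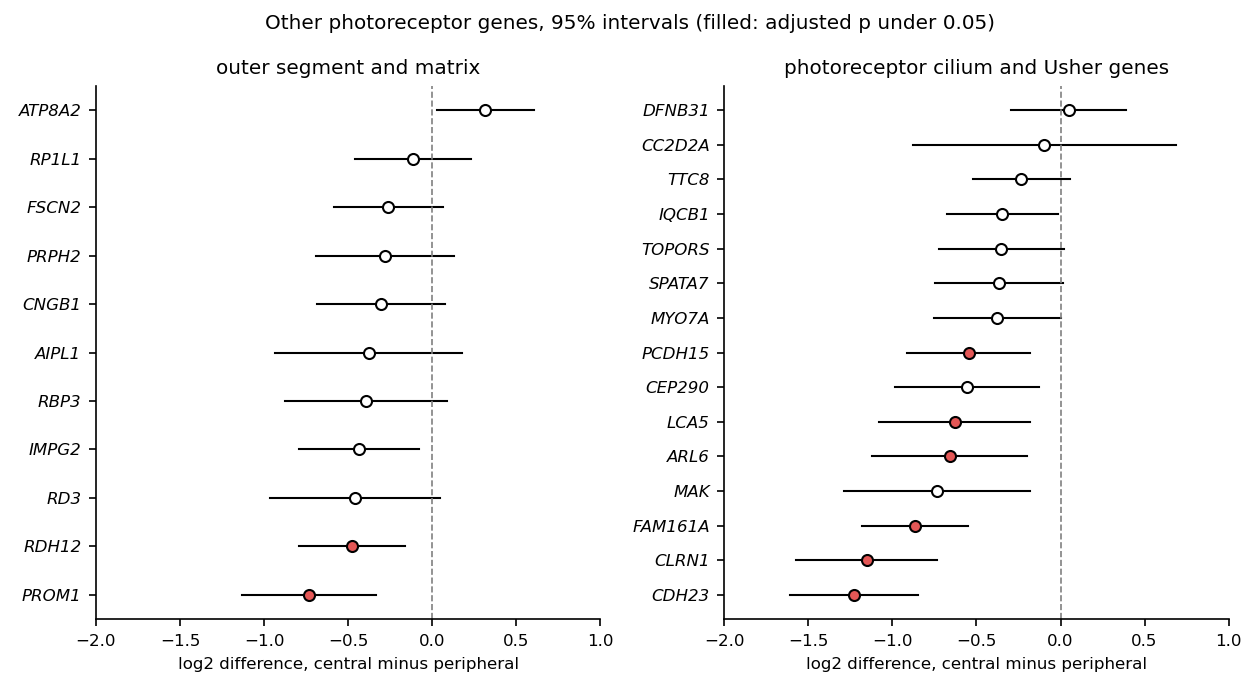
Fitted log2 difference, central minus peripheral retina (x axis), with 95% intervals, for 11 outer segment and matrix genes (left) and 15 cilium and Usher genes (right). Filled points passed limma's adjusted threshold of 0.05. All 8 filled points lie left of the dashed line that marks no difference.

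Of 6 tested photoreceptor regulators, OTX2 (-0.44, limma adjusted p = 0.0341) and NEUROD1 (-0.48, 0.0173) were lower in central than in peripheral retina. None was higher, beside 8.76% of all tested genes lower and 12.5% higher. CRX, the homeobox factor of photoreceptors, did not pass between the regions (-0.15, limma adjusted p = 0.475) and was higher than whole retina by 0.94 in central (0.000637) and 1.09 in peripheral retina (0.000529). Some markers of other cells moved between the regions too, beside the 8.76% of all tested genes lower and 12.5% higher. Of 6 ganglion cell markers 6 were higher in central retina (sums 1967 to 3802 against 353 to 647), and of 8 Müller glia markers 7 were lower. Of 7 pigment epithelium markers 5 were lower and 1 was higher (MITF, named after its values were seen). RLBP1 is among the lower genes of both the Müller glia and the pigment epithelium list. Of 5 bipolar cell markers 1 was higher (PCP2, shared name start). Of 7 genes on the lens and corneal list 1 was higher (PAX6, most of the regional sums of that list). PAX6 averaged 49.7 in central retina and 58.7 in whole eye, so it did not mark lens or cornea here. Both counts are not far from the share of all tested genes. Apart from 1 lens or corneal marker at 0 in all central libraries, no marker of these lists was at 0 throughout a tissue, and their part in the members' differences was not tested.

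For each member the genes with the most similar values over the 11 libraries were found among 4586 genes, by Pearson correlation of log2 values. The libraries share tissue, scaling and depth differences, so the correlations only describe likeness. For RP1 they were ELOVL4, an enzyme of very long chain fatty acids and itself a macular dystrophy gene (r = 0.936), SLITRK2 (0.908) and BIRC6 (0.903). ELOVL4 had a mean of 192 ± 27.0 (SD, n = 4) in central retina and 290 ± 9.37 (SD, n = 3) in peripheral retina, against 173 ± 12.4 (SD, n = 2) in whole retina. For ABCA4 they included ALPL, an alkaline phosphatase (0.932), and CRB1, a polarity protein and dystrophy gene (0.907). For EYS they were SGIP1 (0.972), CNKSR2 (0.951) and SV2B, a synaptic vesicle protein (0.931). For IMPG1 they were RSPH3, a radial spoke protein (0.95), SON, a splicing cofactor (0.935), and RDH10, a retinol dehydrogenase (0.933). RDH10 differs in scale, at 20.2 ± 5.39 (SD, n = 4) in central retina and 82.0 ± 10.5 (SD, n = 3) in peripheral retina.

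TULP1 and CDHR1 shared FAM222A among their nearest genes (0.973 and 0.988). The others were CROCC, rootletin of the ciliary rootlet (0.979), and SPEF1, a microtubule protein (0.972), for TULP1, and PODXL, podocalyxin (0.989), and ZNF385A (0.985) for CDHR1. CROCC had a mean of 40.5 ± 6.37 (SD, n = 4) in central retina and 51.5 ± 2.74 (SD, n = 3) in peripheral retina and 14.6 ± 2.71 (SD, n = 2) in whole retina. Over the 7 regional libraries alone many of these genes were no longer among the nearest of the 4586. For TULP1, FAM222A ranked 283 (0.832), SPEF1 139 and CROCC 16. For CDHR1, PODXL ranked 77 (0.860), ZNF385A 156 and FAM222A 5. For RP1, SLITRK2 ranked 207, BIRC6 130 and ELOVL4 6.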

How the data were processed

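RNA sequencing was deposited as 1 table per library, with 1 signal value per gene that the authors had normalized, per the file headers, without saying how. The submitters' processing notes name the aligner GSNAP and the counting tool HTSeq. Neither versions nor build or annotation could be stated (not given in the sources used here), and no coordinates or sequences are printed. Of 13083 entries, 27 hold no number, 61 are exact duplicates and 38 share a repeated name. Some names share their start with another name in the tables, which is marked where such a gene is named: its value in some libraries may belong to the other name, which was not tested.

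The tissue label of a sample gave its group. limma 3.58.1 (R 4.3.3) was fitted on log2(value + 1) of all 11 libraries (4 groups, variance trended on level) over genes whose mean reached 1 in any group. The script was tested on simulated data. Whole reads were sought in 237 entries at full precision: 94.5% to 96.6% of them had whole-number ratios to whole eye replicate 1 (whole numbers up to 3000, tolerance 2e-08).

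Alternatives were another pseudocount, other filters, quantile normalization, equal medians, only the groups compared, the replicate number as a block, no variance trend, and each library left out; a pseudocount of 0.1 for levels relative to rod or cone markers was added after seeing the data. Besides the 6 genes, the text names their nearest relatives with a value, up to 4 genes per list by the smallest p between the regions, a fixed set of known markers (of which ROM1 was not analysed here), and the 3 most similar genes per member with a mean of at least 10 in 1 group. The members and the 14 lists were chosen with earlier results of these data known. Some genes that met this rule are not reported here.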

Additional observations from a re-analysis of the deposited data

Results flagged for a closer look

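RP1 in central retina replicate 4 stood apart from the other 3 central libraries, at 54.85 against 123.5 to 130.5. The gap to the nearest of them took 0.908 of the group's range, above the critical value of 0.829 for 4 samples. Chance flags about 1 in 20 groups, and 11 groups were looked at. The rod markers of this library summed to 16324, within the central range, while it was the lowest central library for ABCA4, EYS, IMPG1 and TULP1 as well, though not for CDHR1. Without it RP1 differed between central and peripheral retina by -0.82 (limma adjusted p = 0.00115) and from whole retina by 0.24 in central retina (0.141).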

How the results depend on the processing

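Of 678 values of the 6 genes under alternatives, 631 kept direction and side of the threshold, 47 did not, and 10 of these reversed; the cause was not tested unless stated. The calls on IMPG1 and RP1 between the regions, and on TULP1 and CDHR1 against whole retina and whole eye, were kept in all. EYS has no value at a minimum mean of 5. Leaving out 1 of 2 libraries of a tissue assumes that the lone one varies like the other groups.

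Replicate numbers of central and peripheral retina share only a number: deviations of same-numbered libraries correlated at -0.138, -0.061 and 0.357 (0.19 for both pairs of whole retina and whole eye). With the replicate block, which also fits fewer samples, counts of higher and lower genes were 961 and 635 between the regions (1493 and 1045 without), 5 and 115 between whole retina and whole eye (20 and 251), 1477 and 2229 for central retina (2257 and 3549) and 430 and 1780 for peripheral retina against whole retina (1173 and 2904). Between the regions, the block gave ABCA4 -0.59 (limma adjusted p = 0.0592) and EYS -0.51 (0.0506). Against whole retina it gave EYS 0.70 (0.0767) in peripheral retina, and IMPG1 -0.23 (0.214) and RP1 0.26 (0.148) in central retina.

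Quantile normalization gave 3681 genes higher in central and 3143 in peripheral retina against whole retina. Against whole eye it gave 3978 higher in central retina, and 3424 higher (1471 without) and 2130 lower (3296) in peripheral retina. With it EYS was 0.55 (limma adjusted p = 0.0193), IMPG1 -0.10 (0.635) and RP1 0.091 (0.837) in central against whole retina, and ABCA4 0.86 (0.0112) and IMPG1 0.62 (0.012) in peripheral. Against whole eye EYS was 0.91 (0.000909) and IMPG1 0.031 (0.88) in central and IMPG1 0.74 (0.00391) in peripheral retina. Equal medians gave 1943 genes higher in peripheral than whole retina, ABCA4 0.64 (0.0239) there, IMPG1 -0.28 (0.121) and RP1 0.049 (0.903) in central against whole retina, and IMPG1 0.41 (0.0423) in peripheral retina against whole eye. With only the 2 groups compared, IMPG1 in central retina was -0.39 (0.0966) and ABCA4 in peripheral retina 0.51 (0.0219) against whole retina. Between whole retina and whole eye, genes higher numbered 7 with a pseudocount of 0.1, 32 with no filter, 8 at a minimum mean of 5, 44 with quantile normalization and 12 with 2 groups; genes lower numbered 135 at a minimum mean of 5 and 158 with 2 groups.

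With each library left out, genes higher between the regions ranged from 829 (without peripheral retina replicate 2) to 1628 and genes lower from 499 (likewise) to 1386, with 655, 610 and 618 without central retina replicates 3 and 4 and peripheral retina replicate 1. Genes higher in whole retina than whole eye ranged from 14 to 493 (without whole retina replicate 2; 56 without whole eye replicate 1). Genes higher in peripheral retina ranged from 697 (without whole retina replicate 2) to 1196 against whole retina and from 978 (without whole eye replicate 1) to 1587 against whole eye. EYS ranged from -0.68 to -0.51 between the regions, from -0.14 to 0.18 in central and from 0.46 to 0.78 in peripheral against whole retina. Against whole retina, IMPG1 ranged from -0.46 to -0.30 and RP1 from -0.17 to 0.24 in central, and RP1 from 0.96 to 1.15 and ABCA4 from 0.49 to 0.55 in peripheral retina, where ABCA4 passed without central retina replicate 1 (0.012) or 4 (0.0391). TULP1 ranged from -0.081 to 0.14 between whole retina and whole eye. Against whole eye, in central retina IMPG1 ranged from -0.38 to -0.22, passing without central retina replicate 1 (0.0392), and RP1 from 0.017 to 0.44, passing without central retina replicate 4 (0.0145); RP1 ranged from 1.13 to 1.37 in peripheral retina. Absolute depth is unknown, so depth limits could be given for EYS alone.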
